A study of Cucumis sativus with 12 samples.

Results

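Loss of CsALC was examined on top of an existing loss of CsSPT, by setting the Csspt Csalc double mutant against the Csspt single mutant in cucumber (Cucumis sativus) stigma and style collected at anthesis, the day the flower opens. The double mutant carries the genotype CssptCsalc-/- in the labels and the single mutant Csspt-/-, so both groups lack CsSPT function and differ in CsALC. All 3 double mutant and 3 Csspt libraries were used, 6 of the 12 in the series, and 18368 of 24345 listed genes had enough reads to be tested. The labels give neither the alleles, nor the number of lines, nor whether RNA was pooled over flowers or plants. The replicates are called biological, and p-values measure only the spread between these libraries.

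SPATULA and ALCATRAZ are closely related bHLH transcription factors, best known from Arabidopsis, where SPATULA is needed for the stigma, style and transmitting tract and ALCATRAZ for fruit opening, with partly overlapping work in carpel growth. The transmitting tract is the tissue inside the pistil whose cells secrete the matrix through which pollen tubes grow to the ovules. In Arabidopsis carpels these factors act together with auxin, cytokinin and gibberellin pathways. The study's title ties both cucumber genes to this tract, to a cavity in the fruit and to female sterility, and the comparison asks what the second mutation adds to the first.

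The libraries held 37986853, 36606956 and 34749795 counted reads in the double mutant and 33722143, 34560579 and 32155631 in Csspt. Correlations across genes of log2 counts scaled to library size were 0.974 to 0.985 within a group and 0.941 to 0.971 between groups. The first principal component held 56.3% of the variance and placed the double mutant libraries at -60.04, -38.54 and -34.71 and the Csspt libraries at 20.97, 59.4 and 52.92. Csspt replicate 1 thus lay nearest to the double mutant on that axis. It was the highest Csspt library in 565 of the 966 genes called higher in the double mutant and the lowest in 331 of the 679 called lower. Because the samples are bulk tissue, fewer cells of a type and less RNA per cell cannot be told apart in anything that follows.

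Two-sided edgeR quasi-likelihood tests with Benjamini-Hochberg adjustment over all tested genes called 966 genes higher and 679 lower in the double mutant at an adjusted p under 0.05, or 8.96% of those tested (5.26% higher and 3.7% lower). Among the called genes, 525 were more than 2-fold higher, 186 more than 4-fold and 52 more than 8-fold. In the other direction 275 were more than 2-fold lower, 57 more than 4-fold and 20 more than 8-fold. The genes called higher tended to be weakly expressed, with a median level of 9.0 FPKM (read fragments scaled to transcript length and library size) in the double mutant and 3.77 FPKM in Csspt. Those called lower had a median level of 14.0 FPKM in the double mutant and 25.6 FPKM in Csspt. In counts scaled to library size, all called genes had double mutant libraries wholly above or wholly below the Csspt libraries, which was the case for 35.4% of the genes tested (18.7% above and 16.7% below). Statements below that the groups were apart for a called gene therefore repeat what held for every call and add no support.

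The count of calls rested strongly on which libraries were included. Leaving out Csspt replicate 2 left 69 higher and 96 lower, and leaving out Csspt replicate 3 left 132 and 151. Without double mutant replicate 2 there were 242 and 202, without replicate 1 there were 498 and 463, and without replicate 3 there were 634 and 388. Leaving out Csspt replicate 1 raised the counts to 1408 and 933. Fitting all 12 libraries together left 22 and 46. A fit of 11 libraries, leaving aside Csalc replicate 3, which is outside the comparison, gave 1491 and 1257. The spread shared by all genes, as a coefficient of variation between replicates, was 0.363 with 12 libraries, 0.193 with 11 and 0.2 with 6. No called gene had a fold change of the opposite sign in any of these fits. For each gene below, levels are given as FPKM in replicates 1, 2 and 3, followed by the log2 fold change of the double mutant over Csspt with its standard error (n = 3 each) and the adjusted p.

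**Figure D1:**
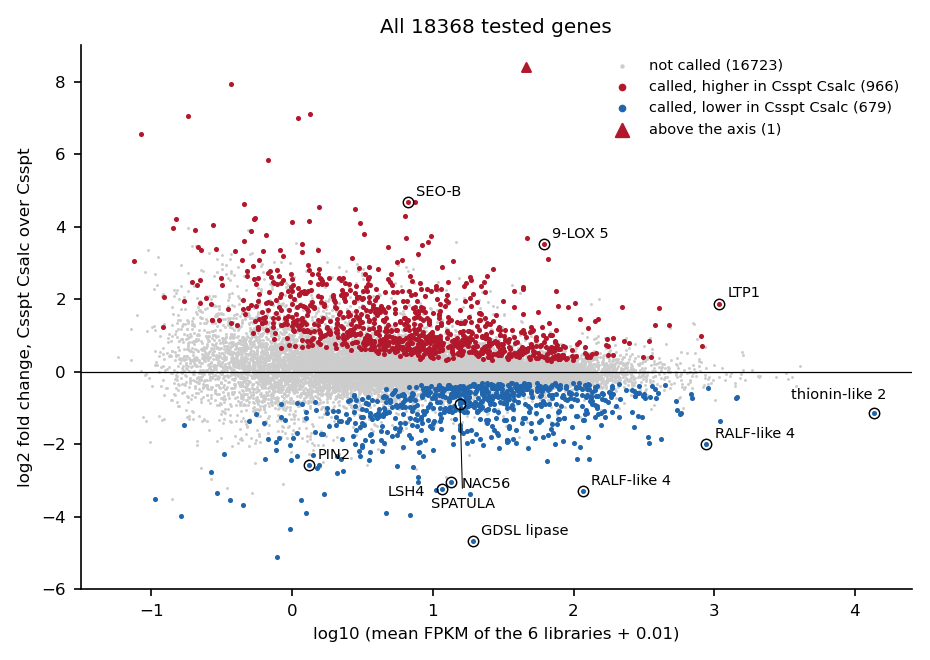
Each point is 1 of the 18368 tested genes, with the log10 mean FPKM over the 6 libraries (plus 0.01) on the x axis and the log2 fold change of the double mutant over Csspt on the y axis; red points are the 966 genes called higher, blue points the 679 called lower, grey points all others, and the triangle marks a gene with 0 counts in Csspt that lies above the axis. The large rises sit mostly at low mean levels, while falls reach genes of high level, and a fold against 0 counts depends on the prior count of the fit.

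The annotation names 2 genes SPATULA and none ALCATRAZ, so the level of the gene removed in the double mutant alone was not assigned. Csa2G356640, the more abundant of the pair, fell to 13.2, 12.1 and 8.44 FPKM in the double mutant, against 20.9, 20 and 18.9 FPKM in Csspt (log2 fold change -0.88 ± 0.16, adjusted p = 0.0236). All double mutant libraries lay below all Csspt libraries, yet the call was lost without double mutant replicate 2, Csspt replicate 2 or Csspt replicate 3. Csa6G491000 stayed near the detection limit, at 0.25, 0.322 and 0.226 FPKM in the double mutant and 0.193, 0.0772 and 0.321 FPKM in Csspt (0.38 ± 0.53, adjusted p = 0.679). Its libraries overlapped. RNA level alone does not report on protein function in either mutant, and which of these genes carries the Csspt mutation is not stated in the labels.

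The sharpest falls in the double mutant included an esterase, a boundary regulator, a NAC factor and several small secreted peptides. Genes in this ranking needed at least 2 FPKM in the higher group, here Csspt. Csa6G518310, a GDSL-type lipid esterase named At5g45960, was at 1.12, 1.43 and 1.90 FPKM in the double mutant, against 37.2, 36.1 and 38.2 FPKM in Csspt (-4.69 ± 0.20, adjusted p = 0.00101). Csa3G383780, named LIGHT-DEPENDENT SHORT HYPOCOTYLS 4 and in Arabidopsis a regulator of organ boundaries, was at 1.62, 2.77 and 2.35 FPKM in the double mutant and 19.5, 22.5 and 21.0 FPKM in Csspt (-3.25 ± 0.22, adjusted p = 0.00301). Csa3G100800, the NAC transcription factor 56, was at 2.68, 4.11 and 2.24 FPKM in the double mutant and 19.1, 24.3 and 28.5 FPKM in Csspt (-3.03 ± 0.25, adjusted p = 0.00556). The replicates of each group lay close together in these genes, and a wide gap separated the groups.

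Several small cysteine-rich or secreted products fell as well. The thionin-like protein 2 gene Csa7G446640, of a family of small antimicrobial-type peptides, had 0.358, 1.06 and 1.10 FPKM in the double mutant and 7.85, 19.6 and 11.3 FPKM in Csspt (-3.94 ± 0.51, adjusted p = 0.0102). Csa5G222980, named for the olive pollen allergen Ole e 6, had 0.277, 0.557 and 0.933 FPKM in the double mutant and 6.48, 11.6 and 7.86 FPKM in Csspt (-3.90 ± 0.44, adjusted p = 0.00791). Double mutant replicate 1 was the lowest of the 6 compared libraries for both peptides. The S-protein homolog 24 gene Csa6G007430, related to the poppy stigma proteins of self-incompatibility, had 0.102, 0.331 and 1.13 FPKM in the double mutant and 4.13, 2.66 and 4.06 FPKM in Csspt (-2.79 ± 0.67, adjusted p = 0.0481). Without double mutant replicate 3 the estimate was -3.98 ± 0.58 (adjusted p = 0.0249), and without any other single library the call was lost, at adjusted p up to 0.132. Beta-galactosidase 3, Csa2G249880, which belongs to enzymes that trim galactose from wall polysaccharides, had 1.74, 3.56 and 4.66 FPKM in the double mutant and 15.3, 39.8 and 46.0 FPKM in Csspt (-3.37 ± 0.51, adjusted p = 0.0157). Csa4G025120, a glycine-rich cell wall structural protein 2, had 29, 11.7 and 20.4 FPKM in the double mutant and 41.5, 142 and 144 FPKM in Csspt (-2.47 ± 0.51, adjusted p = 0.0334). In both wall genes Csspt replicate 1 was far below the other Csspt libraries while still above the double mutant.

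Metabolic genes were among the steep falls too. The cytochrome P450 gene CYP71AN24, listed as Cucumis_sativus_newGene_1864 and named for an enzyme of cyanogenic glucoside synthesis in Japanese apricot, had 2.83, 1.69 and 1.63 FPKM in the double mutant and 31.5, 14.8 and 10.9 FPKM in Csspt (-3.27 ± 0.45, adjusted p = 0.0116). Csa3G047820, the inactive beta-amylase 4 that in Arabidopsis promotes starch breakdown, had 0.991, 1.99 and 2.23 FPKM in the double mutant and 11.7, 16.1 and 14.1 FPKM in Csspt (-3.04 ± 0.31, adjusted p = 0.0068). Csa3G903560, annotated as beta-amyrin 11-oxidase, a triterpenoid enzyme, had 1.62, 1.71 and 2.64 FPKM in the double mutant and 11.9, 12.3 and 13 FPKM in Csspt (-2.64 ± 0.24, adjusted p = 0.00636). Csspt replicate 1 was the highest Csspt library for the P450 and the lowest for the other two, and the groups did not overlap. Flowering-promoting factor 1-like Csa3G153750 had 2.38, 1.73 and 1.59 FPKM in the double mutant and 8.64, 15.5 and 17.6 FPKM in Csspt (-2.90 ± 0.31, adjusted p = 0.00738). The AP2-like factor Csa7G431330, named At1g16060, had 0.678, 1.76 and 2.37 FPKM in the double mutant and 11.3, 7.11 and 9.99 FPKM in Csspt (-2.59 ± 0.44, adjusted p = 0.0207). Of the 13 falls described so far beside SPATULA, 9 were called whichever single library was left out.

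**Figure D2:**
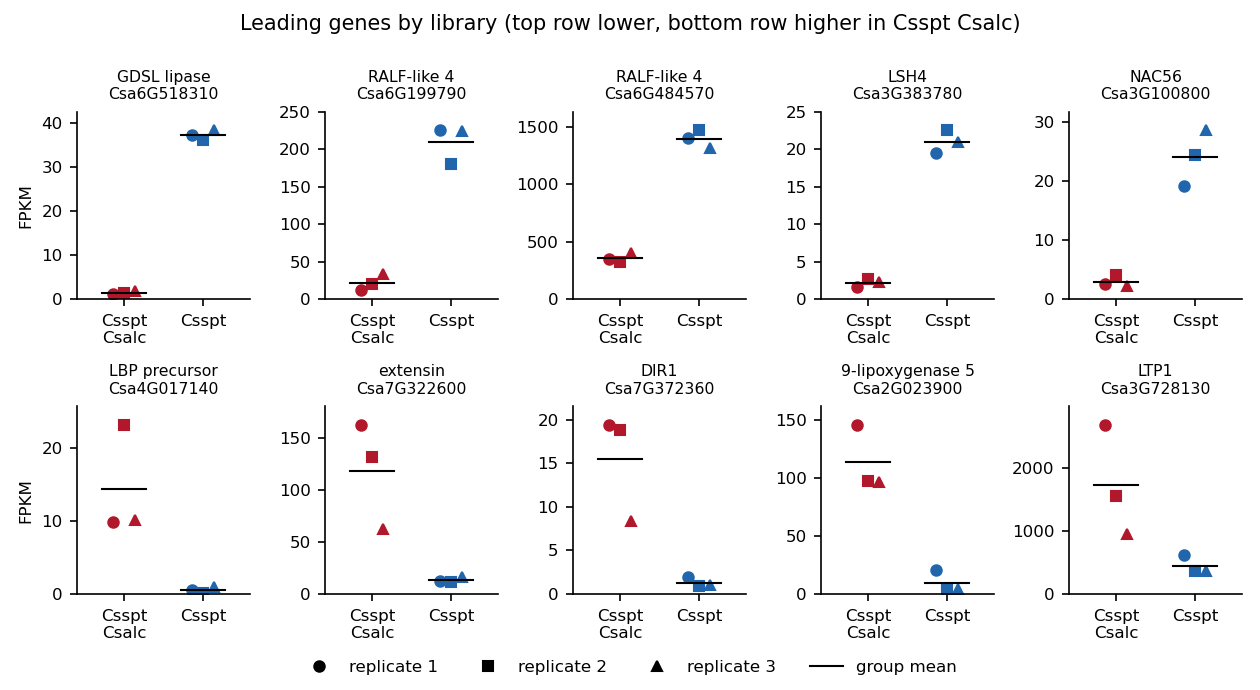
FPKM in each library for 10 genes, double mutant on the left and Csspt on the right of each panel, with circles, squares and triangles for replicates 1, 2 and 3 and lines for group means. The upper panels hold genes lower in the double mutant (GDSL esterase At5g45960, both RALF-like 4 genes, LSH4 and NAC56), and the lower panels hold genes higher in it, where the double mutant libraries scatter more.

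The largest rises included genes of cytokinin synthesis, lipid metabolism and wall proteins. They were ranked by log2 fold change, with at least 2 FPKM required in the higher group only. Their low or undetected levels in Csspt thus follow in part from the choice. Adenylate isopentenyltransferase 5, Csa6G237640, of the family that carries out the first step of cytokinin synthesis, was at 3.49, 2.90 and 1.56 FPKM in the double mutant and 0.0259, 0 and 0 FPKM in Csspt (adjusted p = 0.0068). It had 373 counts in the double mutant and 2 in Csspt, a ratio of 171 after scaling to library totals, with an exact 95% interval of 47.1 to 1420 that covers counting error only. Both Csspt counts came from replicate 1. Csa4G017140, annotated as the precursor of a lipopolysaccharide-binding protein, was at 9.88, 23.2 and 10.2 FPKM in the double mutant and 0.534, 0.151 and 0.921 FPKM in Csspt (4.69 ± 0.60, adjusted p = 0.0102, and 5.31 ± 0.70, adjusted p = 0.0351, without Csspt replicate 3). Csa5G622440, another glycine-rich cell wall structural protein 2, was at 8.94, 4.07 and 4.28 FPKM in the double mutant and 0.691, 0.0852 and 0.133 FPKM in Csspt (4.09 ± 0.66, adjusted p = 0.0185). Csspt replicate 1 was several times the other Csspt libraries for this wall gene, and without it the fold change was 5.41 ± 0.56 (adjusted p = 0.00525). The 2 genes that carry this same protein name, here and among the falls, thus moved in opposite directions.

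The other large rises named include 3 lipid enzymes. Csa4G006140, a palmitoyl-monogalactosyldiacylglycerol delta-7 desaturase of chloroplast lipids, was at 0.98, 2.76 and 5.17 FPKM in the double mutant and 0.112, 0.111 and 0.108 FPKM in Csspt (4.56 ± 0.70, adjusted p = 0.0167, and 3.87 ± 0.55, adjusted p = 0.0247, without double mutant replicate 3). The GDSL esterase Csa1G467090, named At1g29670, was at 19.5, 14.1 and 2.45 FPKM in the double mutant and 0.752, 0.501 and 0.463 FPKM in Csspt (4.30 ± 0.74, adjusted p = 0.0222). Phospholipase A2-alpha, Csa1G433610, which releases fatty acids from phospholipids, was at 9.66, 6.74 and 1.92 FPKM in the double mutant and 0.041, 0.637 and 0.529 FPKM in Csspt (3.80 ± 0.79, adjusted p = 0.0335). Double mutant replicate 3 was the lowest double mutant library for the last pair and the highest for the desaturase. The E3 ligase gene LIN, Csa3G159430, known from root nodulation in legumes, was at 17.8, 13.8 and 4.59 FPKM in the double mutant and 0.879, 0.711 and 1.08 FPKM in Csspt (3.70 ± 0.48, adjusted p = 0.0108). HVA22-like protein f, Csa6G423340, of a family first found in stressed barley, was at 24.4, 10.2 and 16.8 FPKM in the double mutant and 2.29, 0.809 and 1.02 FPKM in Csspt (3.58 ± 0.47, adjusted p = 0.0108, and 4.17 ± 0.43, adjusted p = 0.00532, without Csspt replicate 1). The plastid isoprenoid enzyme DXS2, Csa3G114510, was at 2.28, 2.06 and 2.12 FPKM in the double mutant and 0.377, 0.0839 and 0.0606 FPKM in Csspt (3.53 ± 0.56, adjusted p = 0.0184, and 4.73 ± 0.28, adjusted p = 0.00191, without Csspt replicate 1). Of the 9 rises named here and in the previous group, 2 were called without Csspt replicate 2 and 3 without Csspt replicate 3.

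Auxin genes were called lower at several steps, carriers, synthesis and response, with some carrier and response genes called higher. Of 18 auxin transport genes tested, 3 were lower and 1 higher, and of 39 Aux/IAA and auxin response factor genes, 10 were lower (25.6%, against 3.7% of all genes) and 3 higher. The median log2 fold changes of these lists were -0.11 and -0.23, against 0.01 over all genes tested. In the transport list 9 genes had a positive and 9 a negative fold change, and DESeq2 called 4 higher and 3 lower. PIN-FORMED proteins export auxin from cells. PIN2, Csa1G427480, was at 0.621, 0.339 and 0.177 FPKM in the double mutant and 2.06, 1.91 and 2.73 FPKM in Csspt (-2.58 ± 0.40, adjusted p = 0.017). The auxin importer gene Csa5G374730, AUX1-like 3, was at 1.10, 1.93 and 1.96 FPKM in the double mutant and 4.67, 6.39 and 5.23 FPKM in Csspt (-1.74 ± 0.26, adjusted p = 0.0156). The groups were apart for both of these carriers. Among the carriers called, PIN-LIKES 1, Csa4G664490, of the endoplasmic reticulum carriers, went the other way, with 8.89, 8.79 and 7.72 FPKM in the double mutant and 5.35, 5.04 and 5.47 FPKM in Csspt (0.63 ± 0.11, adjusted p = 0.0223). PIN3, Csa5G576590, at 42.3, 19.6 and 27.1 FPKM in the double mutant and 50.6, 42.8 and 39.7 FPKM in Csspt (adjusted p = 0.15), was not called. Neither was PIN4, Csa5G284520, at 37.6, 31.9 and 44.0 FPKM in the double mutant and 28.5, 14.3 and 13.6 FPKM in Csspt (adjusted p = 0.0905).

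YUCCA enzymes make auxin from its indole precursor, and 2 of the 3 auxin synthesis genes tested fell. YUCCA6, Csa2G375750, had 13.3, 17.1 and 19.0 FPKM in the double mutant and 35.0, 32.7 and 31.0 FPKM in Csspt (-1.04 ± 0.15, adjusted p = 0.0148). YUCCA10, Csa3G190380, had 3.57, 1.84 and 2.16 FPKM in the double mutant and 5.53, 6.16 and 5.47 FPKM in Csspt (-1.23 ± 0.24, adjusted p = 0.0292). Aux/IAA proteins are auxin-induced repressors of the response, and 5 of 22 tested fell, by 0.68 to 1.87 on the log2 scale, while 2 rose. IAA29, Csa1G231530, had 12.1, 16.2 and 16.2 FPKM in the double mutant and 53.3, 62.5 and 42.6 FPKM in Csspt (-1.87 ± 0.19, adjusted p = 0.0068). AUX28, Csa7G378520, had 52.1, 72.1 and 77.3 FPKM in the double mutant and 189, 173 and 134 FPKM in Csspt (-1.34 ± 0.20, adjusted p = 0.0152). IAA7, Csa2G200420, had 19.2, 20.4 and 28.6 FPKM in the double mutant and 42.9, 43.1 and 47.9 FPKM in Csspt (-1.02 ± 0.17, adjusted p = 0.02). These 3 repressors were separated between groups with room to spare, as was AUX22, Csa7G440550, at 44.4, 30.7 and 39.3 FPKM in the double mutant and 76.8, 65.6 and 66.2 FPKM in Csspt (-0.92 ± 0.14, adjusted p = 0.0179).

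The Aux/IAA genes did not all go one way. IAA26, Csa3G895090, rose to 3.96, 3.62 and 2.47 FPKM in the double mutant, against 1.47, 1.44 and 1.62 FPKM in Csspt (1.10 ± 0.21, adjusted p = 0.0264). IAA33, Csa2G059200, rose to 1.37, 2.81 and 2.14 FPKM in the double mutant, against 0.661, 0.553 and 0.452 FPKM in Csspt (1.84 ± 0.39, adjusted p = 0.0356). Auxin response factors are the DNA-binding activators and repressors of the pathway, and 5 of 17 fell by 0.42 to 0.69 on the log2 scale while 1 rose. The summed level of the 17 was 504, 507 and 497 FPKM in the double mutant and 657, 640 and 655 FPKM in Csspt. The most abundant of the 17 was ARF6, Csa6G524670, needed for flower maturation in Arabidopsis, at 239, 243 and 233 FPKM in the double mutant and 350, 333 and 355 FPKM in Csspt (-0.59 ± 0.09, adjusted p = 0.0171). Of 39 small auxin-up RNA (SAUR) and GH3 genes, 3 were called higher (7.69%) and 1 lower (2.56%), against 5.26% and 3.7% of all genes. The list leaned upward, with 27 positive and 12 negative fold changes and a median of 0.335. At an unadjusted p under 0.05, 13 were higher and 2 lower, and DESeq2 called 8 higher and 1 lower. SAUR50, Csa2G258100, was at 11.8, 9.55 and 7 FPKM in the double mutant and 3.86, 3.96 and 4.52 FPKM in Csspt (1.14 ± 0.21, adjusted p = 0.0242), and SAUR40, Csa3G883020, was at 1.10, 1.70 and 1.46 FPKM in the double mutant and 4.84, 4.35 and 3.57 FPKM in Csspt (-1.61 ± 0.25, adjusted p = 0.018). The auxin calls depended on the Csspt libraries. The response list had 1 to 10 lower calls when a single library was left out, the fewest without Csspt replicate 2, and the transport list had 0 without Csspt replicate 2 or 3.

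**Figure D3:**
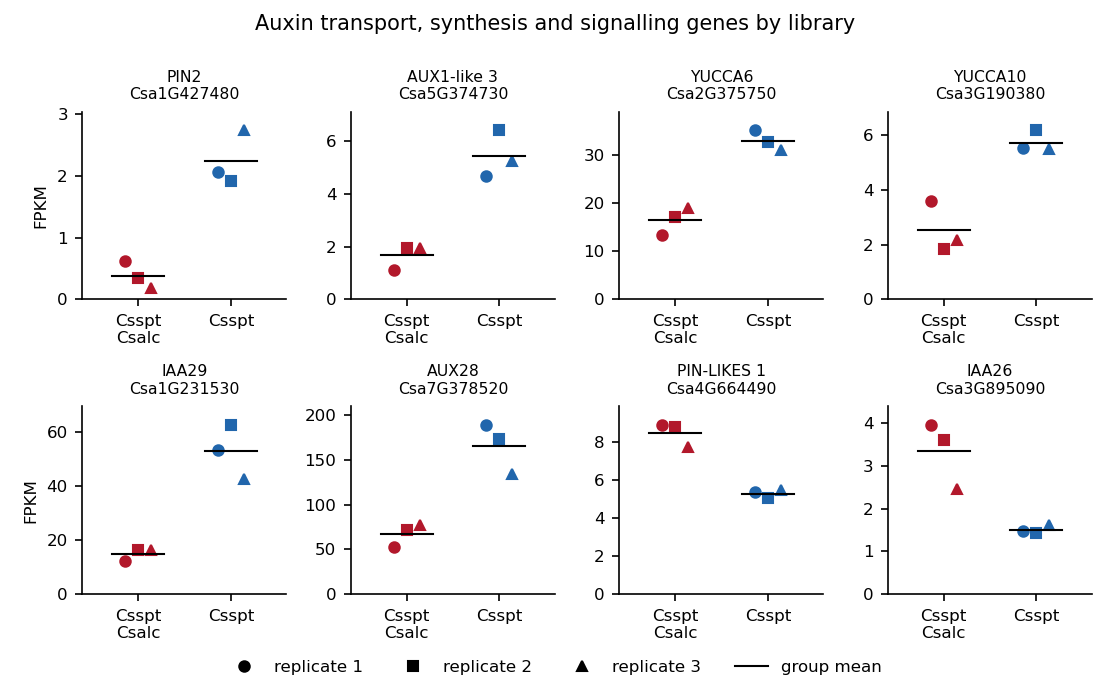
FPKM in each library for 8 auxin genes, double mutant on the left and Csspt on the right of each panel, symbols for replicates 1 to 3 and lines for group means. PIN2, AUX1-like 3, YUCCA6, YUCCA10, IAA29 and AUX28 have all double mutant points below the Csspt points, and PIN-LIKES 1 and IAA26 have them above.

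Regulators of carpel and transmitting tract identity moved in both directions. Of 28 tested, 5 were lower (17.9%, against 3.7% of all genes) and 2 higher, with a median of -0.07. WIP2, Csa3G810580, is the zinc-finger factor that Arabidopsis needs for the transmitting tract and is also called NO TRANSMITTING TRACT. It fell to 6.74, 4.66 and 3.84 FPKM in the double mutant, against 9.47, 10.3 and 9.09 FPKM in Csspt (-0.97 ± 0.20, adjusted p = 0.0333). BEE3, Csa1G024150, a bHLH factor induced by brassinosteroid in Arabidopsis, fell to 106, 68.9 and 64.0 FPKM in the double mutant, against 197, 160 and 155 FPKM in Csspt (-1.15 ± 0.20, adjusted p = 0.0213). CUP-SHAPED COTYLEDON 2, Csa2G376790, a NAC factor of organ boundaries and carpel margins, fell to 1.91, 2.54 and 2.72 FPKM in the double mutant, against 4.72, 5.57 and 6.54 FPKM in Csspt (-1.27 ± 0.20, adjusted p = 0.0186). NGA1, Csa5G146310, a B3 factor needed for style and stigma in Arabidopsis, was picked out after its values were seen, at 111, 92.9 and 117 FPKM in the double mutant and 149, 136 and 147 FPKM in Csspt (-0.48 ± 0.11, adjusted p = 0.0411). The fifth lower member was SPATULA itself. In the other direction, 1 of the genes named AGAMOUS, Csa1G467100, a MADS factor of carpel and stamen identity, rose to 12.9, 10.8 and 15.6 FPKM in the double mutant, against 3.92, 3.49 and 3.88 FPKM in Csspt (1.75 ± 0.17, adjusted p = 0.00661). YABBY4, Csa3G033810, of a family that marks organ sides, rose to 37.2, 17.3 and 17.4 FPKM in the double mutant, against 8.81, 8.28 and 10.4 FPKM in Csspt (1.35 ± 0.29, adjusted p = 0.0383).

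The more abundant AGAMOUS gene, Csa6G520410, was at 78.4, 71.0 and 66.9 FPKM in the double mutant and 60.8, 69.1 and 68.3 FPKM in Csspt (0.08 ± 0.08, adjusted p = 0.549), and its libraries overlapped. A STIG1-like gene of the stigma, Csa1G059710, was at 0.157, 0.793 and 0.356 FPKM in the double mutant and 3.81, 0.723 and 1.98 FPKM in Csspt (adjusted p = 0.0979), also with overlap. The lower calls of this list fell to 0 without double mutant replicate 2, Csspt replicate 2 or Csspt replicate 3. Over all MADS-box factors, 4 of 23 fell (17.4%, against 3.7% of all genes) and 0 rose, with 0 also higher at an unadjusted p under 0.05 and 0 by DESeq2. They included AGL15, Csa3G686200, a repressor of flowering and organ shedding in Arabidopsis, at 3.37, 2.74 and 2.81 FPKM in the double mutant and 5.19, 6.87 and 6.93 FPKM in Csspt (-1.13 ± 0.17, adjusted p = 0.0143). The abundant MADS4, Csa6G095270, shifted little, at 192, 182 and 194 FPKM in the double mutant and 221, 227 and 245 FPKM in Csspt (-0.34 ± 0.08, adjusted p = 0.0416). Without double mutant replicate 2, Csspt replicate 2 or Csspt replicate 3, 0 of the 4 MADS-box falls were called.

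Other transcription factor families were mixed. NAC factors had 8 of 45 members higher (17.8%, against 5.26% of all genes) and 2 lower. Both genes named NAC domain-containing protein 86, a factor of sieve element maturation in Arabidopsis, rose: Csa1G032410 was at 7.54, 5.16 and 4.73 FPKM in the double mutant and 1.56, 0.644 and 0.928 FPKM in Csspt (2.41 ± 0.36, adjusted p = 0.0148). Csa5G324000 was at 8.61, 4.52 and 5.13 FPKM in the double mutant and 2.08, 0.564 and 0.664 FPKM in Csspt (2.40 ± 0.52, adjusted p = 0.0375, and 3.26 ± 0.34, adjusted p = 0.00525, without Csspt replicate 1). NAC73, Csa1G076100, a regulator of secondary walls in Arabidopsis, was at 12.2, 9.33 and 7.31 FPKM in the double mutant and 4.71, 2.80 and 3.05 FPKM in Csspt (1.39 ± 0.26, adjusted p = 0.0271). Replicate 1 was the highest library of each group for all 3 of these genes. NAC100, Csa1G009870, fell to 1.03, 1.46 and 1.36 FPKM in the double mutant, against 4.12, 7.28 and 6 FPKM in Csspt (-2.21 ± 0.26, adjusted p = 0.00823). The number of higher NAC genes ranged from 0 without Csspt replicate 2 to 9 without Csspt replicate 1.

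Homeodomain factors were called in both directions. HAT4, Csa3G019370, an auxin- and shade-linked factor in Arabidopsis, fell to 45, 42.8 and 35.0 FPKM in the double mutant, against 82.8, 75.4 and 69.5 FPKM in Csspt (-0.94 ± 0.12, adjusted p = 0.00949). ATHB-8, Csa3G895630, a factor of early vascular cells, fell to 15.5, 14.5 and 11.2 FPKM in the double mutant, against 18.9, 20.5 and 21.1 FPKM in Csspt (-0.60 ± 0.12, adjusted p = 0.0309). HDG2, Csa7G044240, of the epidermal class, rose to 2.10, 3.46 and 2.10 FPKM in the double mutant, against 0.564, 0.605 and 0.785 FPKM in Csspt (1.91 ± 0.26, adjusted p = 0.012). Groups were apart in all 3. HDG5, Csa3G901030, of the same class as HDG2, fell to 15.1, 17.4 and 25.4 FPKM in the double mutant, against 30.2, 35.3 and 39.5 FPKM in Csspt (-0.90 ± 0.21, adjusted p = 0.0449), a call lost without double mutant replicate 1 or 2 or Csspt replicate 2 or 3. Of 81 homeodomain factors tested, 5 were higher and 4 lower, shares close to those of all genes. WRKY factors, linked to defence and senescence, had 4 of 48 higher (8.33%) and 5 lower (10.4%), against 5.26% and 3.7% of all genes. When a single library was left out, 1 to 7 WRKY genes were higher and 0 to 5 lower. WRKY51, Csa2G297180, was at 96.5, 83.7 and 93.8 FPKM in the double mutant and 37.8, 49.2 and 44.6 FPKM in Csspt (1.01 ± 0.11, adjusted p = 0.00741). WRKY57, Csa6G366370, was at 225, 207 and 210 FPKM in the double mutant and 350, 334 and 305 FPKM in Csspt (-0.67 ± 0.09, adjusted p = 0.011). Among 71 bHLH factors, the family of SPATULA and ALCATRAZ, 2 were higher and 3 lower, and MYB and AP2/ERF factors had 4 of 80 and 3 of 76 higher with 2 and 3 lower, shares near those of all genes.

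Clock genes leaned downward. Of 22 tested, 3 were lower (13.6%, against 3.7% of all genes) and 0 higher, with 1 higher at an unadjusted p under 0.05 and 1 by DESeq2; 18 of the 22 had a negative fold change and the median was -0.37. ELF4, Csa5G202370, part of the evening complex, fell to 21.1, 14.1 and 13.8 FPKM in the double mutant, against 49.7, 66.7 and 69.5 FPKM in Csspt (-1.97 ± 0.19, adjusted p = 0.00643). APRR5, Csa5G139010, a pseudo-response regulator of the clock, fell to 19.7, 39.0 and 36.5 FPKM in the double mutant, against 62.9, 91.0 and 90.1 FPKM in Csspt (-1.40 ± 0.28, adjusted p = 0.0312). REVEILLE 6, Csa3G183960, a MYB-like clock factor, fell to 1.06, 2.16 and 1.92 FPKM in the double mutant, against 3.61, 6.62 and 6.55 FPKM in Csspt (-1.73 ± 0.34, adjusted p = 0.0301). Replicate 1 was the lowest library of both groups for APRR5 and REVEILLE 6, but not of the double mutant for ELF4. The labels give no hour of collection, and the part of sampling time in these values was not tested. Without 1 library, 1 to 9 clock genes were called lower, the most without Csspt replicate 1. Over the 14 AGL15, MADS4, NAC, homeodomain (HDG5 aside), WRKY and clock genes named, 3 calls held without Csspt replicate 2, 6 without Csspt replicate 3, 7 without double mutant replicate 2, 11 and 10 without double mutant replicates 1 and 3, and 14 without Csspt replicate 1.

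Both genes of the signalling peptide RALF-like 4 fell steeply. RALF peptides bind receptor kinases of the FERONIA type, and in Arabidopsis RALF4 keeps the pollen tube wall intact. Csa6G484570 was at 349, 329 and 404 FPKM in the double mutant and 1403, 1469 and 1318 FPKM in Csspt (-2.0 ± 0.12, adjusted p = 0.00301). Csa6G199790, of the same name, was at 11.9, 19.9 and 33.8 FPKM in the double mutant and 225, 181 and 224 FPKM in Csspt (-3.30 ± 0.37, adjusted p = 0.00791). Every double mutant library was far below every Csspt library for both, though reads of such near relatives may be shared between them. The summed level of 8 RALF peptides tested was 613, 532 and 631 FPKM in the double mutant and 1820, 1827 and 1726 FPKM in Csspt, and the other 6 were not called. Of 10 FERONIA-type and related kinases tested, 1 was called: HERK1, Csa6G302130, at 15.9, 15.1 and 15.8 FPKM in the double mutant and 18.9, 22.8 and 18.8 FPKM in Csspt (-0.42 ± 0.10, adjusted p = 0.0462). The kinases summed to 137, 124 and 137 FPKM in the double mutant and 128, 137 and 118 FPKM in Csspt, with overlap between the groups.

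Pectin enzymes changed in both directions, by gene. Pectin is the main gel of the transmitting tract matrix and of middle lamellae, opened by pectinesterases and then cut by lyases and polygalacturonases. Pectate lyase 5, Csa2G350210, fell to 1.26, 0.915 and 0.886 FPKM in the double mutant, against 8.19, 3.24 and 3.65 FPKM in Csspt (-2.34 ± 0.40, adjusted p = 0.0214). Rhamnogalacturonate lyase B, Csa3G892760, fell to 9.87, 5.97 and 6.33 FPKM in the double mutant, against 39.4, 22.8 and 21.0 FPKM in Csspt (-1.96 ± 0.30, adjusted p = 0.0156). Replicate 1 was the highest library of both groups for these lyases. Pectinesterase 63, Csa1G597780, fell to 427, 305 and 375 FPKM in the double mutant, against 821, 790 and 761 FPKM in Csspt (-1.15 ± 0.13, adjusted p = 0.00823). Pectinesterase 67, Csa3G166360, fell to 8.74, 7.47 and 8.68 FPKM in the double mutant, against 16.9, 16.6 and 16.3 FPKM in Csspt (-1.05 ± 0.10, adjusted p = 0.00636). The pectinesterase pair varied little within a group. A pair of polygalacturonases named At1g48100 rose. Csa2G348790 was at 2.53, 4.02 and 1.71 FPKM in the double mutant and 0.32, 0.244 and 0.203 FPKM in Csspt (3.34 ± 0.38, adjusted p = 0.00791). Csa3G838140 was at 24.3, 11.4 and 7.15 FPKM in the double mutant and 4.07, 2.21 and 3.40 FPKM in Csspt (2.08 ± 0.45, adjusted p = 0.0363, and 1.49 ± 0.30, adjusted p = 0.0466, without double mutant replicate 1). In all, 5 of 50 genes in the pectin cleavage list were higher (10%) and 3 lower (6%), with a median of 0.35. The de-esterification list had 4 of 40 higher (10%) and 3 lower (7.5%), with a median of 0.26. Shares of all genes were 5.26% and 3.7%. The lists were set by protein name. Rhamnogalacturonan I rhamnosyltransferase 1, Csa1G015580, a transferase and not a cleaving enzyme, is among the cleavage falls. Pectinesterase inhibitor 10, Csa5G160150, is among the de-esterification rises. Levels were given here and above for 9 called RALF-like, HERK1 and pectin genes. Of these, 5 were called without double mutant replicate 2 and 6 without Csspt replicate 2. Without double mutant replicate 3 or Csspt replicate 3, 7 were called. Without double mutant replicate 1 there were 8, and without Csspt replicate 1 there were 9.

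Wall-loosening genes were called in both directions, while the callose genes called were all higher. Expansins loosen walls without cutting them, and 2 of 20 fell while 2 rose, against 3.7% lower and 5.26% higher over all genes. EXPA11, Csa2G346000, was at 78.4, 51.5 and 61.1 FPKM in the double mutant and 146, 139 and 145 FPKM in Csspt (-1.22 ± 0.14, adjusted p = 0.00791). EXPA15, Csa1G033320, was at 4.58, 3.95 and 3.15 FPKM in the double mutant and 10.9, 10.3 and 10.1 FPKM in Csspt (-1.46 ± 0.17, adjusted p = 0.00791). EXPA4, Csa1G522540, was at 104, 46.3 and 48.1 FPKM in the double mutant and 30.6, 16.1 and 16.2 FPKM in Csspt (1.59 ± 0.38, adjusted p = 0.0486). The falls were tight within groups, whereas EXPA4 was high in replicate 1 of both. XTH23, Csa1G422470, an enzyme that cuts and rejoins xyloglucan, rose to 428, 759 and 862 FPKM in the double mutant, against 340, 269 and 203 FPKM in Csspt (1.30 ± 0.31, adjusted p = 0.0461). Callose is made by callose synthases and removed by beta-1,3-glucanases, and 8 of 56 genes of this list rose (14.3%, against 5.26% of all genes) while 0 fell, with 2 lower at an unadjusted p under 0.05 and 1 by DESeq2. Callose synthase 5, Csa2G302180, which builds callose of the pollen wall in Arabidopsis, was at 2.33, 1.14 and 1.48 FPKM in the double mutant and 0.551, 0.11 and 0.255 FPKM in Csspt (2.35 ± 0.54, adjusted p = 0.0421, and 3.09 ± 0.49, adjusted p = 0.0142, without Csspt replicate 1).

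Among 42 beta-1,3-glucanases tested, 7 rose, by 0.82 to 3.07 on the log2 scale. Glucanase 13, Csa1G537410, was at 8.41, 4.29 and 5.97 FPKM in the double mutant and 1.54, 0.292 and 0.554 FPKM in Csspt (2.87 ± 0.54, adjusted p = 0.0267, and 3.76 ± 0.44, adjusted p = 0.00636, without Csspt replicate 1). Csa5G139170, named only as a glucan endo-1,3-beta-glucosidase, was at 3.73, 2.34 and 2.20 FPKM in the double mutant and 0.771, 0.411 and 0.288 FPKM in Csspt (2.41 ± 0.39, adjusted p = 0.0189). Replicate 1 was again the highest library of each group. The callose list held 16 higher calls without Csspt replicate 1, 0 without Csspt replicate 2 and 1 without Csspt replicate 3. Of the 7 expansin, xyloglucan and callose genes named, 2 were called without double mutant replicate 2, Csspt replicate 2 or Csspt replicate 3, 4 and 3 without double mutant replicates 1 and 3, and 7 without Csspt replicate 1.

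Genes that build the surface lipid layer were among those that rose. Of 30 cutin, wax and surface lipid genes tested, 7 were higher (23.3%, against 5.26% of all genes) and 0 lower, with 2 lower at an unadjusted p under 0.05 and 1 by DESeq2; the median was 0.41. This list, set by protein name, leaves out P450 enzymes such as CYP86A22, Csa5G153010, which was counted with the cytochrome P450 genes. CYP86A22 fell to 66.4, 40.7 and 45.9 FPKM in the double mutant, against 129, 97.9 and 131 FPKM in Csspt (-1.28 ± 0.19, adjusted p = 0.0157). Wax chains are lengthened by ketoacyl-CoA synthases, reduced to alcohols by reductases and joined into esters by WSD1. KCS10, Csa4G649640, was at 14.7, 10.5 and 11.2 FPKM in the double mutant and 5.24, 3.78 and 3.49 FPKM in Csspt (1.49 ± 0.20, adjusted p = 0.0112). CER2, Csa3G892170, which helps the lengthening step, was at 18.4, 7.76 and 14.7 FPKM in the double mutant and 6.29, 4.84 and 3.97 FPKM in Csspt (1.38 ± 0.32, adjusted p = 0.0437). The reductase gene Csa6G152310 was at 1.20, 1.53 and 1.89 FPKM in the double mutant and 0.154, 0.306 and 0 FPKM in Csspt (3.19 ± 0.76, adjusted p = 0.0462). That reductase call held in 1 of the 6 fits that leave out a library, without Csspt replicate 3, and the estimate was 4.14 ± 0.87 (adjusted p = 0.09) without Csspt replicate 2. WSD1, Csa7G051300, was at 1.24, 1.57 and 0.82 FPKM in the double mutant and 0.041, 0.107 and 0.0704 FPKM in Csspt (3.77 ± 0.42, adjusted p = 0.00781). The groups stood apart for each, with CER2 the closest to touching.

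Lipid exporters and carriers went with the wax genes that rose. ABC transporters had 13 of 95 members higher (13.7%) and 1 lower, and 6 of 30 in the ABCG class rose, by 0.57 to 2.54 on the log2 scale. ABCG11, Csa1G044820, an exporter of cuticle lipids in Arabidopsis, was at 22.9, 15.2 and 13.9 FPKM in the double mutant and 5.27, 4.4 and 2.88 FPKM in Csspt (1.99 ± 0.27, adjusted p = 0.0112). ABCG32, Csa2G005890, an exporter of cutin precursors in Arabidopsis, was at 14.5, 22.8 and 15.1 FPKM in the double mutant and 2.46, 3.51 and 4.46 FPKM in Csspt (2.29 ± 0.26, adjusted p = 0.00791). ABCG12, Csa6G434390, a wax exporter in Arabidopsis, was at 3.68, 1.76 and 0.795 FPKM in the double mutant and 0.492, 0.321 and 0.486 FPKM in Csspt (2.17 ± 0.52, adjusted p = 0.0466). The ABCG12 call held without double mutant replicate 3 and was lost without any other library, with 1.52 ± 0.38 (adjusted p = 0.0753) without double mutant replicate 1. The summed ABCG level was lower all the same, at 521, 585 and 558 FPKM in the double mutant and 636, 622 and 635 FPKM in Csspt.

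Lipid-transfer proteins are small secreted carriers of lipids, abundant at plant surfaces and in stigma exudates. Of 11 tested, 5 were higher (45.5%) and 0 lower, with 1 lower at an unadjusted p under 0.05 and 0 by DESeq2; the median was 1.88. LTP1, Csa3G728130, reached 2682, 1549 and 949 FPKM in the double mutant, against 624, 363 and 365 FPKM in Csspt (1.88 ± 0.39, adjusted p = 0.0337). Csa4G333620, named only as a lipid-transfer protein, was at 190, 95.4 and 85.9 FPKM in the double mutant and 20.7, 20.4 and 35.2 FPKM in Csspt (2.23 ± 0.34, adjusted p = 0.0167). LTP2, Csa1G042560, was at 10.5, 9.11 and 14.1 FPKM in the double mutant and 2.64, 1.18 and 3.13 FPKM in Csspt (2.23 ± 0.36, adjusted p = 0.0187). Double mutant replicate 1 was the highest of the 6 compared libraries for the first pair but not for LTP2. The lipid-transfer-like genes VAS, Csa3G250900, and DIR1, Csa7G372360, rose too. VAS was at 1.75, 1.39 and 0.787 FPKM in the double mutant and 0.33, 0.121 and 0.225 FPKM in Csspt (2.43 ± 0.50, adjusted p = 0.0332). DIR1, a carrier needed for systemic defence signalling in Arabidopsis, was at 19.4, 18.8 and 8.36 FPKM in the double mutant and 1.95, 0.923 and 0.985 FPKM in Csspt (3.50 ± 0.43, adjusted p = 0.00949).

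GDSL esterases had 10 of 51 members higher (19.6%) and 3 lower, and held both one of the steepest falls and one of the steepest rises given above. The GDSL gene APG, Csa3G434970, was at 24.6, 9.97 and 10.9 FPKM in the double mutant and 3.80, 2.70 and 2.50 FPKM in Csspt (2.27 ± 0.37, adjusted p = 0.0189). Csa2G078090, a second gene named At1g29670, was at 21.8, 21.7 and 10.1 FPKM in the double mutant and 5.01, 1.90 and 3.05 FPKM in Csspt (2.37 ± 0.42, adjusted p = 0.0234). No library of the double mutant was as low as any of Csspt for either. Without Csspt replicate 2 or 3 no GDSL rise was called, and the lipid-transfer, surface lipid and ABC lists had 1, 1 and 2 higher genes without Csspt replicate 2 and 2, 3 and 3 without Csspt replicate 3.

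Structural wall glycoproteins rose more often than they fell: 7 of 55 arabinogalactan, extensin and proline-rich protein genes were higher (12.7%, against 5.26% of all genes) and 1 lower. The extensin Csa7G322600, of the family of cross-linked wall proteins, was at 162, 131 and 62.2 FPKM in the double mutant and 12.9, 11.3 and 15.8 FPKM in Csspt (3.10 ± 0.34, adjusted p = 0.00745). DC2.15, Csa2G381890, a proline-rich protein known from carrot cultures, was at 68.3, 24.9 and 33.9 FPKM in the double mutant and 9.82, 3.37 and 6.34 FPKM in Csspt (2.64 ± 0.48, adjusted p = 0.025). The pistil-specific extensin-like gene Csa5G597480, named for a protein of the tobacco style, was at 1.75, 1.17 and 0.712 FPKM in the double mutant and 0.257, 0.102 and 0.107 FPKM in Csspt (2.79 ± 0.49, adjusted p = 0.0232). Double mutant replicate 1 was the highest of the 6 compared libraries for all 3 of these genes. Csa3G047810, also named extensin, was the lower member, at 1.23, 0.987 and 1.07 FPKM in the double mutant and 4.69, 5.64 and 4.32 FPKM in Csspt (-2.19 ± 0.20, adjusted p = 0.00643). The list had 13 higher calls without Csspt replicate 1 and 1 without Csspt replicate 2 or 3.

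Phenylpropanoid genes had the most higher calls of the metabolic lists: 27 of 94 rose (28.7%, against 5.26% of all genes) and 1 fell, with a median of 0.47. This pathway turns phenylalanine into lignin, flavonoids and related phenolics. Phenylalanine ammonia-lyase opens it, and all 16 genes of that name had a positive fold change, 10 of them called, at 0.87 to 1.76 on the log2 scale. Their summed level was 1016, 1273 and 1415 FPKM in the double mutant and 862, 687 and 635 FPKM in Csspt, with no overlap, though several lie in families of near-identical copies that may share reads. Csa6G405960 was at 3.09, 1.77 and 1.83 FPKM in the double mutant and 0.875, 0.508 and 0.511 FPKM in Csspt (1.76 ± 0.32, adjusted p = 0.0245). The next steps are carried out by P450 enzymes. CYP73A100, Csa2G069700, the cinnamate hydroxylase, was at 4.42, 5.20 and 5.20 FPKM in the double mutant and 2.77, 1.78 and 1.78 FPKM in Csspt (1.18 ± 0.27, adjusted p = 0.0441). CYP98A2, Csa3G819790, a coumarate 3-hydroxylase, was at 12.6, 14.3 and 13.9 FPKM in the double mutant and 8.61, 5.13 and 4.67 FPKM in Csspt (1.10 ± 0.24, adjusted p = 0.038). Csspt replicate 1 was the highest Csspt library for these 3 genes.

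Further along the pathway, cinnamoyl-CoA reductases had 6 of 10 members higher, at 0.46 to 1.67 on the log2 scale, and cinnamyl alcohol dehydrogenases 2 of 4. Dirigent proteins, which steer the coupling of phenolic radicals, had 3 of 12 higher, against 5.26% of all genes. Dirigent protein 20, Csa4G280650, was at 3.64, 1.63 and 2.21 FPKM in the double mutant and 0.807, 0.52 and 0.342 FPKM in Csspt (2.08 ± 0.42, adjusted p = 0.0326). Laccase-3, Csa1G533470, of the oxidases that polymerise lignin, was at 6.17, 7.12 and 4.17 FPKM in the double mutant and 2.53, 1.32 and 1.08 FPKM in Csspt (1.77 ± 0.35, adjusted p = 0.0311). Flavonol synthase, Csa6G040540, was at 5.95, 3.97 and 2.98 FPKM in the double mutant and 1.04, 0.588 and 0.679 FPKM in Csspt (2.41 ± 0.33, adjusted p = 0.0116). The groups were separate in each. The lower member was 4-coumarate-CoA ligase-like 7, Csa3G740270, at 118, 106 and 111 FPKM in the double mutant and 175, 155 and 146 FPKM in Csspt (-0.56 ± 0.10, adjusted p = 0.0235). Class III peroxidases, which also act in lignin coupling, had 6 of 41 higher (14.6%) and 2 lower (4.88%), against 5.26% and 3.7% of all genes. The pathway's higher calls numbered 32 without Csspt replicate 1, 16 without double mutant replicate 1, 13 without its replicate 3, 6 without its replicate 2, 2 without Csspt replicate 3 and 0 without Csspt replicate 2.

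**Figure D4:**
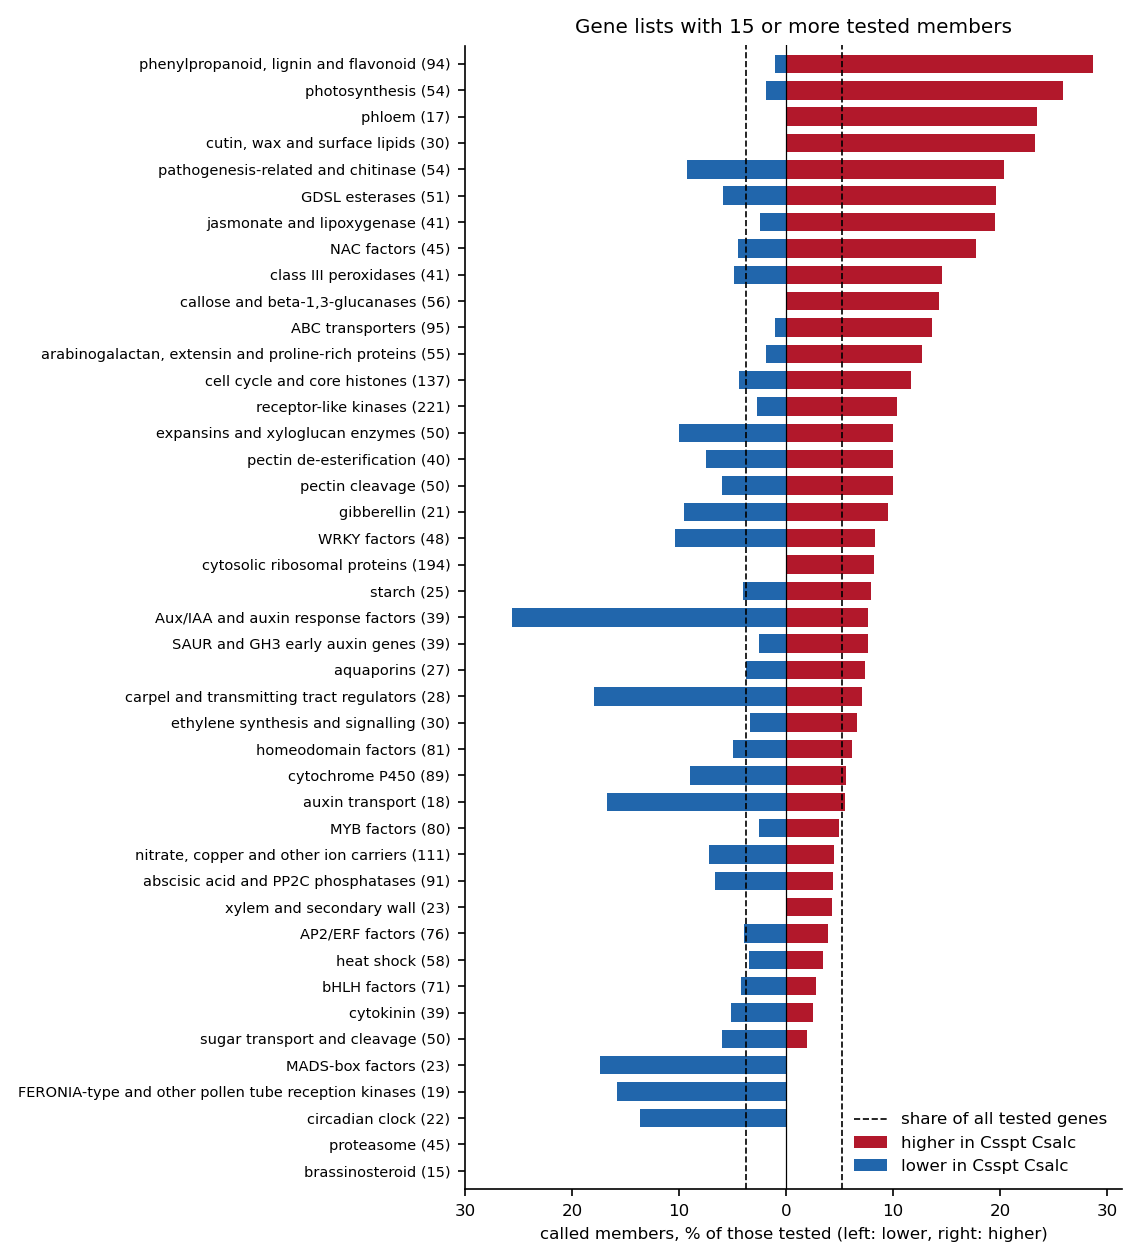
Percent of tested members called higher in the double mutant (bars to the right) and lower (bars to the left) for each gene list with at least 15 tested members; dashed lines mark the share of all tested genes, 5.26% higher and 3.7% lower. Phenylpropanoid, photosynthesis, phloem and surface lipid lists reach farthest right, and Aux/IAA and response factor, carpel and MADS-box lists farthest left.

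Jasmonate and lipoxygenase genes had 8 of 41 members higher (19.5%) and 1 lower. Lipoxygenases oxidise free fatty acids; the 13S type feeds jasmonate synthesis and the 9S type makes other oxylipins. Of 3 9S genes with neighbouring IDs, 1 had no reads in Csspt and the others were expressed there at lower levels than in the double mutant. Linoleate 9S-lipoxygenase A, Csa2G023910, was at 118, 69.0 and 87.2 FPKM in the double mutant and listed at 0, 0 and 0 FPKM in Csspt (adjusted p = 0.00301). Its 1906 counts in the double mutant against 0 in Csspt make it at least 584-fold higher, with a floor of 3 counts over the Csspt group. Csa2G023900, lipoxygenase 5, was at 146, 97.9 and 97.1 FPKM in the double mutant and 20.8, 3.26 and 4.45 FPKM in Csspt (3.51 ± 0.68, adjusted p = 0.028). Csa2G023920, lipoxygenase B, was at 108, 66.9 and 87.8 FPKM in the double mutant and 14.2, 1.89 and 3.10 FPKM in Csspt (3.70 ± 0.67, adjusted p = 0.0248). In both of the last pair Csspt replicate 1 was several times the other Csspt libraries, and without it the log2 fold changes were 4.83 ± 0.26 (adjusted p = 0.00191) for lipoxygenase 5 and 5.07 ± 0.31 (adjusted p = 0.00191) for lipoxygenase B. Lipoxygenase 1, Csa2G028500, was at 8.11, 2.62 and 5.14 FPKM in the double mutant and 0.69, 0.423 and 0.909 FPKM in Csspt (2.86 ± 0.50, adjusted p = 0.0232).

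These lipoxygenases are near relatives whose reads may be shared, so the split among them is uncertain. The jasmonate-feeding 13S genes had 2 of 4 called higher and all 4 with a positive fold change. Csa7G449420, lipoxygenase 3-1 of that type, was at 39.5, 35.6 and 45 FPKM in the double mutant and 27.8, 22 and 18.5 FPKM in Csspt (0.77 ± 0.17, adjusted p = 0.0402). The other called gene, Csa4G288070, was at 0.262, 0.5 and 0.268 FPKM in the double mutant and listed at 0, 0 and 0 FPKM in Csspt (adjusted p = 0.0263). The 13S genes summed to 163, 92.3 and 53.9 FPKM in the double mutant and 44.6, 29.5 and 28.5 FPKM in Csspt, without overlap. All 13 tested 9S genes together summed to 1454, 744 and 589 FPKM in the double mutant and 334, 300 and 363 FPKM in Csspt, without overlap. TIFY proteins of the JAZ class repress the jasmonate response and are themselves induced by it, and 11 of 14 had a negative fold change while 1 was called. That gene, TIFY 10A, Csa1G597690, was at 48.9, 31.5 and 24.4 FPKM in the double mutant and 69.2, 75.9 and 77.0 FPKM in Csspt (-1.14 ± 0.22, adjusted p = 0.0279). The list's higher calls numbered 10 without Csspt replicate 1, 2 without Csspt replicate 3 and 1 without Csspt replicate 2.

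The other hormone lists had shares of called genes on both sides of the 8.96% of all genes. Among them gibberellin had the largest share (19% of 21 genes), abscisic acid had 11% and cytokinin 7.69%, with ethylene between the last pair. In the abscisic acid list, 4 of 91 genes were higher and 6 lower. NCED2, Csa1G435760, which opens the committed step of abscisic acid synthesis, fell to 66.1, 83.9 and 76.9 FPKM in the double mutant, against 199, 136 and 160 FPKM in Csspt (-1.17 ± 0.17, adjusted p = 0.0143). The receptor PYL4, Csa5G217670, rose to 3.92, 4.27 and 2.93 FPKM in the double mutant, against 1.23, 1.32 and 1.13 FPKM in Csspt (1.54 ± 0.22, adjusted p = 0.0129). Both genes separated the groups clearly. Ethylene genes had 2 of 30 higher and 1 lower. The lower one was ACC oxidase 3, Csa6G511860, the last enzyme of ethylene synthesis, at 4.69, 4.79 and 1.65 FPKM in the double mutant and 15.2, 10.5 and 22.8 FPKM in Csspt (-2.17 ± 0.43, adjusted p = 0.0308). Ethylene receptor 1, Csa2G070880, was at 60.1, 53.8 and 58.1 FPKM in the double mutant and 43.9, 32.5 and 34.1 FPKM in Csspt (0.59 ± 0.13, adjusted p = 0.0397). Brassinosteroid genes had 0 of 15 called by edgeR, with 3 lower and 0 higher at an unadjusted p under 0.05 and 1 lower by DESeq2.

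Cytokinin genes had 1 of 39 higher, the isopentenyltransferase described above, and 2 lower. Histidine kinase 4, Csa5G549170, a cytokinin receptor, was at 1.15, 1.88 and 2.22 FPKM in the double mutant and 3.15, 5.55 and 5.45 FPKM in Csspt (-1.47 ± 0.31, adjusted p = 0.0351). The response regulator ORR22, Csa2G008740, which acts at the end of that relay, was at 2.34, 1.78 and 2.31 FPKM in the double mutant and 3.13, 3.33 and 3.52 FPKM in Csspt (-0.68 ± 0.15, adjusted p = 0.0392). Synthesis was thus higher at 1 gene while a receptor and a response regulator were lower. Gibberellin genes had 2 of 21 higher and 2 lower, and without Csspt replicate 2 there were 0 and 0. Both higher genes, Csa1G045890 (log2 fold change 1.20) and Csa3G119310 (1.86), are named gibberellin-regulated protein 14. Gibberellin 2-beta-dioxygenase 2, Csa7G413380, an inactivating enzyme, was at 2.72, 5.24 and 3.53 FPKM in the double mutant and 11.2, 13.4 and 16.6 FPKM in Csspt (-1.88 ± 0.27, adjusted p = 0.0136). The gibberellin 20-oxidase-like gene Csa6G004480 was at 11.9, 10.7 and 11.2 FPKM in the double mutant and 18.5, 18 and 15.4 FPKM in Csspt (-0.66 ± 0.12, adjusted p = 0.0232). CYP714A1, Csa5G224130, which inactivates gibberellin in Arabidopsis, was at 37.6, 9.37 and 14.9 FPKM in the double mutant and 3.99, 1.86 and 2.11 FPKM in Csspt (2.89 ± 0.55, adjusted p = 0.0277, and 2.16 ± 0.37, adjusted p = 0.034, without double mutant replicate 1). The 2 inactivating genes moved in opposite directions. Of the 9 genes given with levels for abscisic acid, ethylene, cytokinin and gibberellin (beside the isopentenyltransferase), 9 were called without Csspt replicate 1, and 1 without Csspt replicate 2 or 3.

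Some markers of vascular tissue and many of green tissue were higher in the double mutant libraries. Sieve element occlusion proteins are the filament proteins of phloem sieve tubes, and all 9 tested had a positive fold change, 4 of them called. Their summed level was 112, 77.7 and 76.7 FPKM in the double mutant and 46.4, 10.9 and 13.7 FPKM in Csspt. All 4 called genes are named SIEVE ELEMENT OCCLUSION B and may share reads. Csa2G196900 was at 18.5, 7.20 and 12.7 FPKM in the double mutant and 1.17, 0.0977 and 0.128 FPKM in Csspt (4.68 ± 0.85, adjusted p = 0.0246, and 6.67 ± 0.55, adjusted p = 0.00322, without Csspt replicate 1). Csa2G193340 was at 13.2, 6.94 and 6.24 FPKM in the double mutant and 1.83, 0.139 and 0.306 FPKM in Csspt (3.45 ± 0.82, adjusted p = 0.0461, and 5.22 ± 0.50, adjusted p = 0.00467, without Csspt replicate 1). Csspt replicate 1 was far above the other Csspt libraries for both. Csa2G349660 was tight, at 3.15, 3.19 and 3.25 FPKM in the double mutant and 0.777, 0.73 and 0.626 FPKM in Csspt (2.11 ± 0.15, adjusted p = 0.00301). Csa1G002870 was at 8.09, 7.16 and 5.80 FPKM in the double mutant and 3.41, 1.17 and 1.91 FPKM in Csspt (1.64 ± 0.36, adjusted p = 0.0397).

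The phloem list as a whole had a median log2 fold change of 0.84, with 12 of 17 positive, while its summed level overlapped between groups. It summed to 385, 318 and 300 FPKM in the double mutant and 295, 295 and 314 FPKM in Csspt. The 6 phloem protein 2 genes tested summed to 266, 232 and 216 FPKM in the double mutant and 242, 279 and 296 FPKM in Csspt, with overlap between the groups. Of 17 phloem markers tested, 4 were higher (23.5%) and 0 lower, with 2 lower at an unadjusted p under 0.05 and 2 by DESeq2, and 1 to 8 were higher when a single library was left out. Xylem and secondary wall markers summed to 179, 156 and 171 FPKM in the double mutant and 153, 130 and 126 FPKM in Csspt, and 1 of 23 was called higher. CESA7, Csa2G070320, a cellulose synthase of secondary walls, was at 1.37, 0.983 and 1.31 FPKM in the double mutant and 0.503, 0.181 and 0.21 FPKM in Csspt (1.97 ± 0.40, adjusted p = 0.0317, and 2.59 ± 0.26, adjusted p = 0.00516, without Csspt replicate 1). The xylem proteases XCP1 and XCP2 were picked out after their values were seen and were not called. XCP1, Csa7G027790, was at 26.1, 12.9 and 15.2 FPKM in the double mutant and 7.5, 1.67 and 1.85 FPKM in Csspt (adjusted p = 0.0628). XCP2, Csa4G664420, was at 6.08, 2.80 and 3.89 FPKM in the double mutant and 1.38, 0.241 and 0.137 FPKM in Csspt (adjusted p = 0.0612). Without Csspt replicate 1, 9 xylem markers were called higher, and without any other single library 0 were. ACAULIS5, Csa2G000240, a thermospermine synthase that restrains xylem differentiation in Arabidopsis, was at 31.4, 20.7 and 1.82 FPKM in the double mutant and 1.56, 0.985 and 1.27 FPKM in Csspt (3.75 ± 0.90, adjusted p = 0.0481). Its call held without double mutant replicate 3 and was lost without any other library, with 3.10 ± 0.88 (adjusted p = 0.0972) without double mutant replicate 1. Of the 6 called phloem, CESA7 and ACAULIS5 genes named, 5 were called without Csspt replicate 1, 3 and 2 without double mutant replicates 3 and 1, and 1 without double mutant replicate 2, Csspt replicate 2 or Csspt replicate 3.

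Photosynthesis genes had 14 of 54 members higher (25.9%, against 5.26% of all genes) and 1 lower, and 48 of the 54 had a positive fold change, with a median of 0.61. They summed to 5138, 4452 and 4141 FPKM in the double mutant and 3357, 2543 and 2530 FPKM in Csspt. Chlorophyll a-b binding protein 3, Csa1G445860, of the light-harvesting antenna, was at 39.8, 29.5 and 19.7 FPKM in the double mutant and 6.24, 6.94 and 7.92 FPKM in Csspt (2.02 ± 0.24, adjusted p = 0.00854). The RuBisCO small chain gene Csa5G609710, of the carbon-fixing enzyme, was at 322, 375 and 345 FPKM in the double mutant and 153, 56.9 and 81.2 FPKM in Csspt (1.79 ± 0.34, adjusted p = 0.0272). The type I antenna gene Csa6G522690 was at 187, 147 and 162 FPKM in the double mutant and 88.3, 42.9 and 44.5 FPKM in Csspt (1.44 ± 0.29, adjusted p = 0.0306). RuBisCO activase, Csa7G430770, was the lower member, at 12.3, 14.1 and 15.5 FPKM in the double mutant and 22.5, 22.9 and 21.2 FPKM in Csspt (-0.71 ± 0.12, adjusted p = 0.0211). The higher calls numbered 25 without Csspt replicate 1, 11, 5 and 2 without double mutant replicates 3, 1 and 2, and 2 and 1 without Csspt replicates 3 and 2.

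These markers also separated the Csspt libraries from each other. Csspt replicate 1 was the highest Csspt library in 43 of 54 photosynthesis, 17 of 23 xylem and 11 of 17 phloem markers, against 4 of 11 pollen markers. Double mutant replicate 1 was the highest library of its own group in 34, 12, 12 and 5 of them, in the same order. Pollen markers were low in all libraries, summing to 30.8, 31.3 and 35.4 FPKM in the double mutant and 44.2, 45.7 and 44.3 FPKM in Csspt over 15 members, 2 of them at 0. Ovule and ovary markers, 3 in number, summed to 56.0, 69.9 and 44.4 FPKM in the double mutant and 63.7, 59.3 and 58.0 FPKM in Csspt, and WUSCHEL, which marks early ovules and meristems, was at 0. NGA1 and the AGAMOUS gene Csa6G520410, style and carpel regulators in Arabidopsis, were expressed in all 6 libraries at the levels given above. Whether the share of vascular or green tissue in the dissected pieces differed, and its part in the phenylpropanoid, callose, surface lipid and lipoxygenase rises, was not tested.

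**Figure D5:**
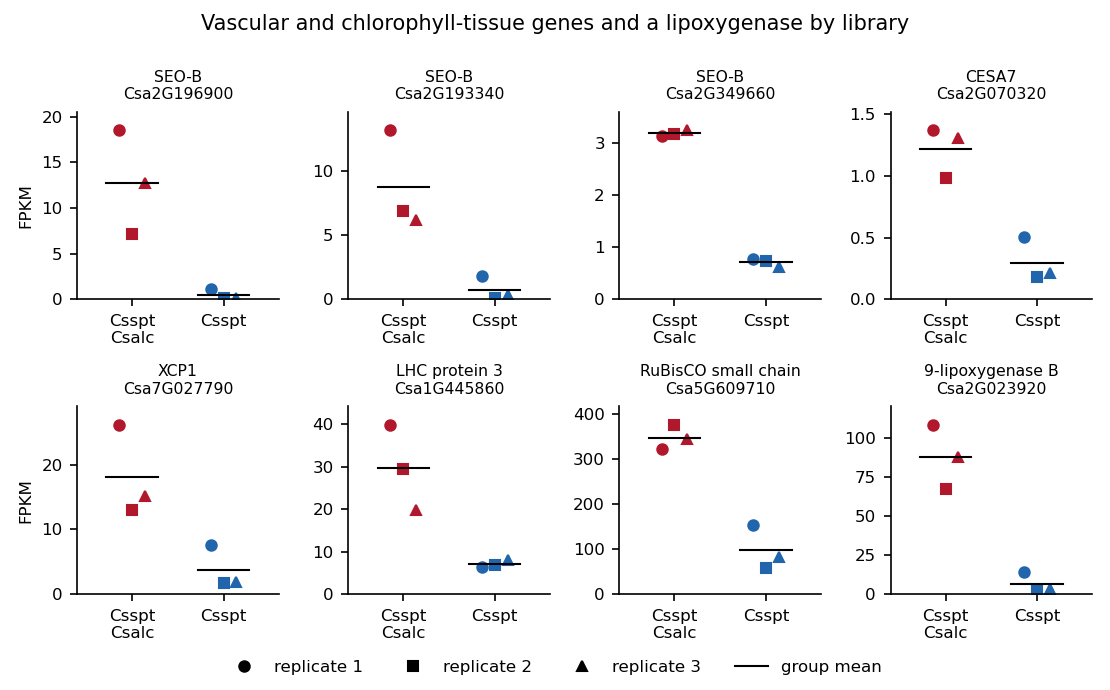
FPKM in each library for 8 genes, double mutant on the left and Csspt on the right of each panel, with circles, squares and triangles for replicates 1, 2 and 3 and lines for group means. SIEVE ELEMENT OCCLUSION B genes, CESA7, XCP1, chlorophyll a-b binding protein 3, the RuBisCO small chain and lipoxygenase B are all higher in the double mutant libraries, and in most panels Csspt replicate 1 (circle) is the highest Csspt point.

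Some very abundant transcripts changed. The thionin-like protein 2 gene CsaUNG012530 was at 10270, 7678 and 8278 FPKM in the double mutant and 19676, 18831 and 17522 FPKM in Csspt (-1.15 ± 0.14, adjusted p = 0.00997). The thiamine thiazole synthase gene Csa3G078800, for vitamin B1, was at 584, 760 and 534 FPKM in the double mutant and 855, 1760 and 2109 FPKM in Csspt (-1.37 ± 0.32, adjusted p = 0.0436). The boron transporter BOR1, Csa1G046110, was at 1252, 1056 and 975 FPKM in the double mutant and 1679, 1842 and 1754 FPKM in Csspt (-0.73 ± 0.13, adjusted p = 0.0237). The groups were apart in all 3, and the thiazole synthase had Csspt replicate 1 well below the other Csspt libraries. The peptidyl-prolyl isomerase 1 gene Csa7G009740 was at 1126, 1114 and 1119 FPKM in the double mutant and 1458, 1863 and 2013 FPKM in Csspt (-0.71 ± 0.13, adjusted p = 0.0253). The mitochondrial calcium uniporter gene MCU2, Csa2G295420, was at 808, 824 and 687 FPKM in the double mutant and 1054, 992 and 1033 FPKM in Csspt (-0.46 ± 0.10, adjusted p = 0.0422).

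Abundant genes on the higher side were led by LTP1. The glycine-rich protein gene Csa7G037600 was at 798, 557 and 524 FPKM in the double mutant and 162, 116 and 259 FPKM in Csspt (1.76 ± 0.30, adjusted p = 0.0207). A P450 named for synthesis of the volatile homoterpene TMTT, Csa3G643770, was at 1089, 991 and 1178 FPKM in the double mutant and 667, 476 and 440 FPKM in Csspt (0.99 ± 0.18, adjusted p = 0.0245). Glutamine synthetase, Csa3G304140, which fixes ammonium, was at 1058, 878 and 1176 FPKM in the double mutant and 632, 566 and 629 FPKM in Csspt (0.72 ± 0.14, adjusted p = 0.027). All 3 were separate between groups. Of the 8 abundant genes in this and the previous group, 7 were called without Csspt replicate 1, 2 without Csspt replicate 3 and 0 without Csspt replicate 2.

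The sugar and ion carriers given with levels here fell and the water channels rose, a selection made with values known. SWEET proteins let sugars out of cells, and 2 of 10 fell while 8 had a negative fold change. Their summed level was 1276, 1457 and 1412 FPKM in the double mutant and 1688, 1944 and 1899 FPKM in Csspt. SWEET12, Csa1G051720, was at 7.23, 4.87 and 5.15 FPKM in the double mutant and 16.4, 28.9 and 20.7 FPKM in Csspt (-1.98 ± 0.24, adjusted p = 0.00919). SWEET4, Csa5G148830, was at 14.2, 11.9 and 13.6 FPKM in the double mutant and 25.3, 23.9 and 19.6 FPKM in Csspt (-0.84 ± 0.13, adjusted p = 0.0184). The groups were apart for both. NPF4.6, Csa5G604280, a nitrate and abscisic acid carrier in Arabidopsis, fell to 132, 204 and 192 FPKM in the double mutant, against 431, 363 and 395 FPKM in Csspt (-1.21 ± 0.19, adjusted p = 0.0171). Zinc transporter 3, Csa4G618490, fell to 9.79, 6.95 and 6.83 FPKM in the double mutant, against 17.2, 26.9 and 30.1 FPKM in Csspt (-1.70 ± 0.23, adjusted p = 0.0112). Ion carriers as a list had 5 of 111 higher (4.5%) and 8 lower (7.21%), against 5.26% and 3.7% of all genes. The higher ones included NPF4.4, Csa5G647280 (2.53 ± 0.36), NPF7.3, Csa3G015860 (1.80 ± 0.43), and PHO1, Csa3G134840 (1.29 ± 0.31). Aquaporins, the water channels, had 2 of 27 higher (7.41%) and 1 lower (3.7%), shares near those of all genes. PIP1-3, Csa5G153020, was at 83.7, 50.1 and 42.6 FPKM in the double mutant and 20.9, 13.8 and 14.3 FPKM in Csspt (1.79 ± 0.27, adjusted p = 0.0166), and TIP4-1, Csa2G374630, was at 26.1, 24.3 and 18.5 FPKM in the double mutant and 8.85, 7.47 and 9.80 FPKM in Csspt (1.35 ± 0.15, adjusted p = 0.00791).

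Defence proteins went both ways: 11 of 54 pathogenesis-related and chitinase genes were higher (20.4%) and 5 lower (9.26%). Thaumatin-like protein 1, Csa3G872740, of a family of antifungal wall proteins, was at 52.1, 71.2 and 50.2 FPKM in the double mutant and 135, 228 and 228 FPKM in Csspt (-1.81 ± 0.23, adjusted p = 0.0102). Csa2G361370, a pathogenesis-related thaumatin-like protein 3.5, was at 86.3, 82.4 and 89.6 FPKM in the double mutant and 246, 185 and 164 FPKM in Csspt (-1.25 ± 0.16, adjusted p = 0.0102). Chitinase-like protein 2, Csa3G166220, which in Arabidopsis is tied to cellulose rather than to chitin, was at 10.4, 11.6 and 12.4 FPKM in the double mutant and 2.89, 2.44 and 2.34 FPKM in Csspt (2.11 ± 0.15, adjusted p = 0.00301). Each was separate between groups, the chitinase-like gene by a wide margin. The list's higher calls numbered 12 without Csspt replicate 1 and 1 without Csspt replicate 2 or 3, while its lower calls numbered 2 without Csspt replicate 2 and 5 without any other single library. Of the 9 transport and defence genes given with levels, 4 were called without Csspt replicate 2, 7 without Csspt replicate 3, 8 without double mutant replicate 2 and 9 without any other single library.

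Counts for the remaining lists were as follows. Over all genes, 5.26% were higher and 3.7% lower. Receptor-like kinases had 23 of 221 members higher (10.4%) and 6 lower (2.71%), and cytochrome P450 enzymes 5 of 89 higher (5.62%) and 8 lower (8.99%). Sugar transport and cleavage had 1 of 50 higher (2%) and 3 lower (6%). Starch had 2 of 25 higher (8%) and 1 lower (4%), and heat shock 2 of 58 higher (3.45%) and 2 lower (3.45%). Cell cycle and core histone genes had 16 of 137 higher (11.7%) and 6 lower, a higher count that ranged from 3 to 15 when a single library was left out. Cytosolic ribosomal proteins had 16 of 194 higher (8.25%) and 0 lower, with 2 lower at an unadjusted p under 0.05 and 1 by DESeq2, and 181 of the 194 had a positive fold change, with a median of 0.20. Their summed level was 12301, 11528 and 12436 FPKM in the double mutant and 9495, 10109 and 10957 FPKM in Csspt, so the groups did not overlap while most single members did not pass the test. Without Csspt replicate 2 or 3, 0 ribosomal genes were called. For the proteasome, edgeR called 0 of 45 genes, with 6 higher and 1 lower at an unadjusted p under 0.05 and 0 by DESeq2. Protease inhibitors had 0 of 12 called by edgeR, with 3 higher and 3 lower at an unadjusted p under 0.05 and 1 higher and 2 lower by DESeq2. Terpene synthases had 0 of 7 called by edgeR, with 3 lower at an unadjusted p under 0.05 and 3 by DESeq2. Of 11 pollen markers, 1 was lower, and of 2 ovule markers tested edgeR called 0, with 1 higher at an unadjusted p under 0.05 and 1 by DESeq2.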

How the data were processed

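Total RNA of all samples was sequenced from NEBNext libraries, per the labels' protocols. The tools listed are HISAT, HISAT2 and DESeq2, per the submitters' processing notes. Tool versions, genome build, annotation and strand setting were not found in the labels or file headers, so overlapping and antisense genes may share reads. The authors deposited 1 table with read counts (whole numbers, not normalized) and FPKM values for 24345 genes. The FPKM columns correct for transcript length and sequencing depth, a step done by the authors according to the headers. The double mutant is headed DM in this table, and 0 value columns stayed unmapped.

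Counts of the 6 libraries, 32155631 to 37986853 per library, were tested in R 4.3.3 with edgeR 4.0.16. Low genes were removed by filterByExpr (minimum count 10), libraries were scaled by TMM, and glmQLFit and glmQLFTest were run without a block, with Benjamini-Hochberg adjustment over all 18368 genes tested and a threshold of 0.05. A standard error is the log2 fold change over the square root of its F value. The procedure was run on simulated counts with independent replicates. They held no shift shared by the genes of a library, so that run does not cover the dependence on single libraries given above. Counts of replicates differed beyond sampling noise in every pair (chi-square over degrees of freedom 13.55 to 68.36), and all were kept as separate samples. A fold against a group at 0 counts uses a floor of 3 counts over the group, and the interval of a count ratio is an exact binomial 95% interval, both for counting error only.

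The 50 gene lists, patterns on the deposited protein names, and the genes described were chosen with earlier results of these data known, and list patterns were corrected after chance text matches were seen. The naming rule took the 15 largest rises and falls without overlap between groups, at 2 FPKM or more and with an informative name, the 5 most abundant called genes each way, up to 4 called genes per list and direction at 1 FPKM or more, and genes named SPATULA. It gave 244 called genes, of which a selection made with values known is described; 1 is not reported here. Subfamilies were set by protein name after values were seen, and ARF6, NGA1, XCP1, XCP2, PIN3, PIN4, a second AGAMOUS gene, a STIG1-like gene and the 13S lipoxygenases were added then. None of the IDs matched the RefSeq tables, so neither coordinates nor sequences are given. Alternatives were RLE factors, DESeq2 1.42.0, no filter, a replicate block, fits of 12 and 11 libraries, a test against a fold of 1.5, limma 3.58.1 on log2(FPKM + 1) and log2(FPKM + 0.1), and each library left out.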

Additional observations from a re-analysis of the deposited data

How the results depend on the processing

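With 966 genes higher and 679 lower in the double mutant by edgeR, DESeq2 called 1910 and 1460, a fit of all 12 libraries 22 and 46, a fit of 11 libraries leaving Csalc replicate 3 aside 1491 and 1257, and a test against a fold of 1.5 called 83 and 76. Leaving out 1 library gave 69 to 1408 higher and 96 to 933 lower. RLE factors (923 and 705), no filter (900 and 617), limma on log2(FPKM + 1) (1143 and 562) and on log2(FPKM + 0.1) (1098 and 542) stayed within 1.5 times. With the replicate block there were 881 and 540 calls, of which 639 and 427 were shared with the fit without it. Deviations of same-numbered libraries correlated at 0.141, 0.0338 and -0.0563, and double mutant replicate 2 correlated best with Csspt replicate 3 (0.144). With 3 libraries per group these values cannot settle whether the numbers pair the samples. Replicate 1 was the highest library of its group for 562 (double mutant) and 565 (Csspt) of the 966 genes called higher. It was the lowest for 328 and 331 of the 679 called lower. Of 244 called genes that met the naming rule, 43 were called whichever library was left out, and 31 moved by over 1.5 times. The Csa6G491000 log2 fold change, 0.38 and not called, ranged from -0.0126 (adjusted p = 0.993, without Csspt replicate 2) to 0.91 (without Csspt replicate 3). Power by expression level was not measured, and the causes of these differences were not tested.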

Other observations

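Csalc and wild-type libraries, which take no part in the comparison above and share no library with it, allow the same genes to be described for loss of CsALC with CsSPT intact. This description was added after the data were seen, as the sign of the difference in mean log2(FPKM + 1), with no test. Of the 966 genes higher in the double mutant than in Csspt, 839 (86.9%) were higher in Csalc than in wild type, against 77.9% of the 9454 tested genes with a positive fold change in the double mutant. Of the 679 genes lower in the double mutant, 559 (82.3%) were lower in Csalc, against 53.7% of the 8914 tested genes with a negative fold change. With Csalc replicates 1 and 2 alone the shares were 85.1%, against 69.3%, and 84.1%, against 59%.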
